A study of Drosophila melanogaster with 12 samples.

Results

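Many fly genes can be transcribed from more than one promoter, and each promoter gives the messenger RNA its own first exon. The alternative first exon can change only the untranslated leader, or it can bring its own start codon and so a different N terminus. Promoter choice of this kind is known from developmental and tissue programmes in Drosophila, and CLAMP is a zinc finger protein that binds GA-rich DNA and acts in male dosage compensation.

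An alternative first exon event was defined as a pair of first exons of a gene that are spliced to the same downstream exon edge. The annotation gave 16232 local events of 7 classes for the quantified transcripts, of which 4002 were alternative first exon events. The 2537 events described here, in 1119 genes, were those in which the transcripts of both forms summed to at least 3 TPM (transcript abundance scaled to a fixed total per library) on average over the 12 libraries. The rule used no difference between groups, but an event can reach this mean through a single group in which its gene is high. An event of Mhc lay just inside this limit with 3.005 TPM and an event of Svil just outside it with 2.995 TPM, and the median was 11.5 TPM. For each event, PSI is the share of the TPM carried by transcripts with the distal first exon, the more upstream of the pair, and ΔPSI is the difference between group means of PSI.

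The study compared L3 larvae of a control genotype, control (yw), with CLAMP mutant larvae, yw;Clampnull, which the methods give as the clamp2 allele in the yw background. Both sexes were taken, giving 4 groups (control females, clamp null females, control males and clamp null males) of 3 libraries each. Each library was made from polyadenylated RNA of 3 whole larvae, so a value averages over all larval tissues, and fewer cells of a type cannot be told apart from less RNA per cell. The labels do not say whether libraries of a group came from separate cultures, so the p-values measure the spread between these libraries, which may be partly technical.

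Groups were taken from the titles of the libraries, since a separate sex field calls every control library female and every clamp null library male. Clamp stood at 36.3 to 59.2 TPM in the 6 control libraries and at 16.2 to 22.8 TPM in the 6 clamp null libraries. Of 20 testis markers, 19 or 20 reached 1 TPM in control males, where they summed to 2032 to 3260 TPM, against 26.2 to 62.4 TPM in control females and 5.14 to 13.6 TPM in clamp null females. Clamp null male 6 held 19 of them with a sum of 449 TPM, whereas clamp null males 4 and 5 held 3 and 7 with sums of 10.5 and 18.1 TPM. All control females had 4 of these markers at 0 and all clamp null females 5 (aly, nht and Mst84Dc among both), and none was at 0 in a control male. Clamp null males 4 and 5 also expressed only 25 and 20 of the 627 genes limited to males in controls, against 499 in clamp null male 6 and 14 to 28 in clamp null females. Late L3 markers (glue, fat body and serum proteins, 10 genes) summed to 92949 to 169909 TPM in controls and to 50.5 to 7524 TPM in clamp null libraries, and Eig71Ea was at 0 in all 6 clamp null libraries and in 1 library each of the control females and control males. Between 9 and 10 of these markers reached 1 TPM in each control library and between 4 and 9 in each clamp null library. Genotype and developmental stage therefore cannot be told apart in any comparison of clamp null with control, and testis content differs between the male groups.

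The 2537 events were spread over all major chromosome arms, with 527 (20.8%) on the X chromosome. Of the 1119 genes, 606 had a single event and 513 had more, up to 41 in CG17574, and events of a gene share exons and transcripts. The first exons of a pair started a median of 1596 bases apart, from 23 bases in AnxB11 to 111762 bases in jing. In 1653 events (65.2%) both forms used the same start codon, and in 884 (34.8%) the start codons differed. The distal share could be computed in all 12 libraries for 1715 events of 957 genes. Among these, the distal first exon was the main one in all 4 groups in 897 events and the proximal one in 470, and the main first exon was not the same in every group in 348 (20.3%). Near-exclusive use of a single first exon was common: PSI was at least 0.9 in all 12 libraries in 286 events and at most 0.1 in 129. Within a library, 52.7% to 66.5% of PSI values were exactly 0 or 1. Libraries of a group could disagree completely, since 536 events (21.1%) had a PSI of at most 0.05 in 1 library and of at least 0.95 in another of the same group.

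Next, it was asked which first exons were used differently by genotype on average over males and females. Such an average can be called on a change in a single sex. The 6 clamp null libraries were compared with the 6 control libraries by a limma contrast of PSI averaged over the sexes, with p-values adjusted over all 8153 events that had a PSI in every library. This contrast was added after the comparisons within each sex had been seen, and the genes named from it were chosen after their values were seen. The distal share changed in 83 of the 1715 events (4.84%), in 71 genes, against 3.78% of events of all 7 classes. The events of all classes, here and below, had no TPM minimum. In clamp null larvae it was higher in 36 events and lower in 47. Over alternative first exon events of any level, 2.14% were called higher and 2.58% lower. The median absolute ΔPSI was 0.339 among the called events and 0.0562 among all 1715, close to the 0.0627 of all events. The called share of first exon events was thus close to the background of all classes.

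PSI values of 56 events in 47 genes (3.27%, against 2.82% of all events) did not overlap between the 6 clamp null and the 6 control libraries, and of these 22 were higher and 34 lower in the clamp null libraries. The count of 83 fell to 50 without clamp null female 4 and rose to 110 without clamp null male 6. In the 12 fits that each left out 1 library, 39 of the 83 events, in 35 genes, passed every time, and none of the 83 changed direction. The genes described first below are from these 39 unless a number of fits is given.

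**Figure D1:**
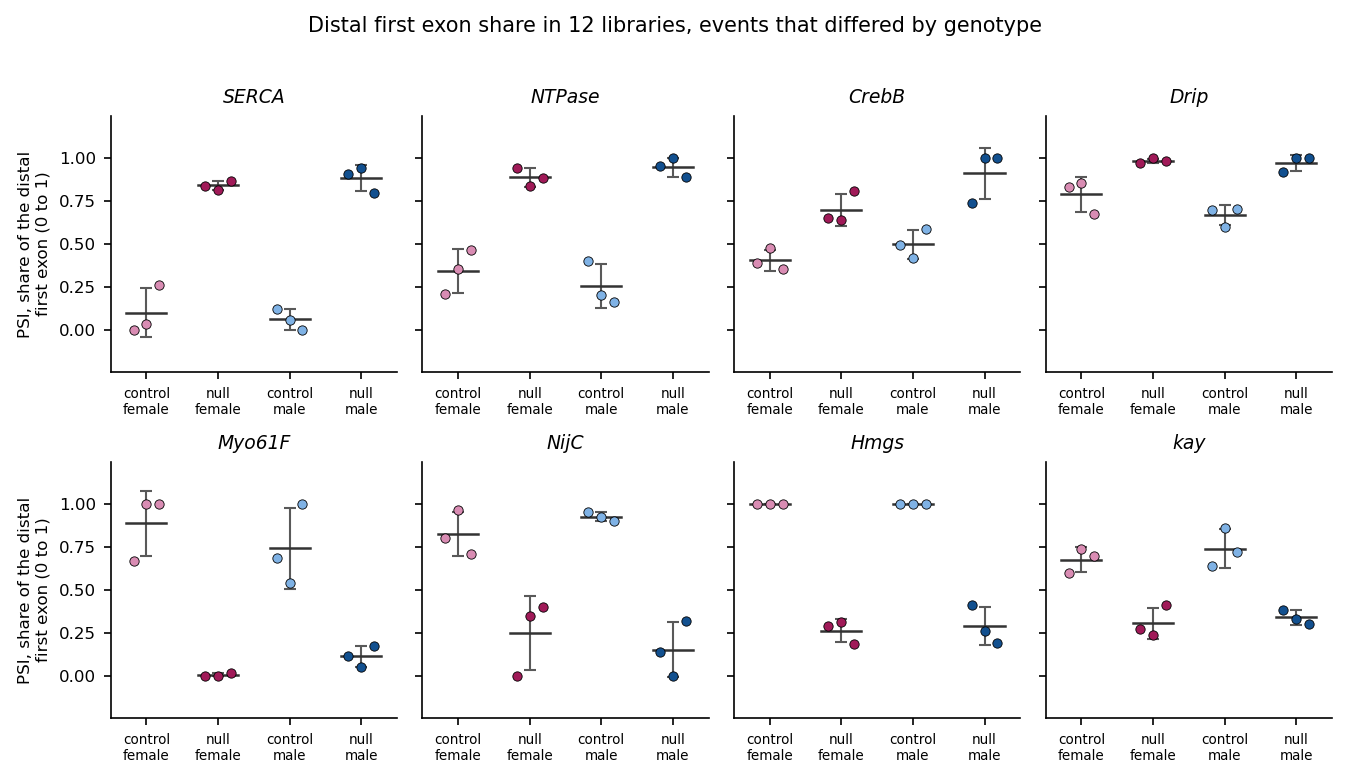
Share of the distal first exon (PSI, 0 to 1) in each of the 12 libraries for 8 events that differed by genotype, with group means and SD as bars over 3 libraries. In SERCA the 6 clamp null libraries lie at 0.797 or above and the 6 control libraries at 0.263 or below, while in Hmgs all 6 controls lie at 1 and no clamp null library exceeds 0.409.

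Genes of calcium handling and of the actin cytoskeleton are described first. SERCA, the pump that returns calcium to the sarcoplasmic and endoplasmic reticulum, lies on the minus strand of chromosome arm 2R (BDGP6 coordinates here and below). Its first exons at 23935580 to 23935680 (distal) and 23933259 to 23933444 (proximal) share a start codon. The distal share was 0, 0.0306 and 0.263 in control females, and clamp null females had 0.841, 0.818 and 0.871. Control males had 0.12, 0.0582 and 0, and clamp null males had 0.911, 0.942 and 0.797. Every clamp null library was far above every control library in both sexes. ΔPSI was 0.785 ± 0.049 (SE; adjusted p = 0.000112, limma), and it stayed between 0.760 and 0.826 whichever library was left out. The distal form stood at 0 to 2.89 TPM in controls and at 77 to 263 TPM in clamp null libraries. On the log2(TPM + 1) scale the distal form rose by 6.17 ± 0.43 (SE; adjusted p = 2.28e-06), whereas the proximal form differed by 0.73 ± 0.35 (adjusted p = 0.144). Another SERCA first exon further upstream, at 23935825 to 23935884, lost share to the same exon, with a ΔPSI of -0.554 ± 0.0536 (adjusted p = 0.00129).

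Actn encodes alpha-actinin, which crosslinks actin filaments at the Z disc, and is X-linked. Its distal first exon, 5845 bases upstream of the proximal one, had PSI values of 0.464, 0.35 and 0.305 in control females, and clamp null females had 0.0241, 0.0283 and 0.0718. Control males had 0.51, 0.349 and 0.25, and clamp null males had 0.0491, 0.0297 and 0.0362. All clamp null libraries were below all controls, with a ΔPSI of -0.332 ± 0.0441 (adjusted p = 0.00547). The proximal form rose by 2.07 ± 0.27 on the log2(TPM + 1) scale (adjusted p = 0.000197) and the distal form fell by 1.52 ± 0.32 (adjusted p = 0.00431). The same pair of first exons joined to a neighbouring splice acceptor gave a second event with a ΔPSI of -0.499 ± 0.0826 (adjusted p = 0.0148).

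Myo61F, an unconventional class I myosin, showed an exchange of forms. Its first exons on 3L, at 1318480 to 1318769 and 1324563 to 1324629, carry different start codons. The distal share was 0.671, 1 and 1 in control females, and clamp null females had 0, 0 and 0.0138. Control males had 0.685, 0.542 and 1, and clamp null males had 0.116, 0.0502 and 0.173. The groups did not overlap in either sex, and ΔPSI was -0.757 ± 0.0859 (adjusted p = 0.00263). The distal form fell by 3.27 ± 0.29 and the proximal form rose by 3.21 ± 0.76 on the log2 scale (adjusted p = 1.3e-05 and 0.00824), while the gene as a whole differed by 0.35 ± 0.25 (adjusted p = 0.236).

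Other actin-associated genes gave weaker calls. For tmod, tropomodulin, which caps the pointed ends of actin filaments, the distal share was 1 in all 6 clamp null libraries and 0.556 to 1 in controls, with control female 3 also at 1 (ΔPSI 0.252 ± 0.0418, adjusted p = 0.0148). Strn-Mlck, a relative of titin and myosin light chain kinase, had a ΔPSI of -0.476 ± 0.092 (adjusted p = 0.026), with PSI at most 0.156 in clamp null libraries and at least 0.215 in controls. It passed in 8 of the 12 fits, and its adjusted p reached 0.0704 without clamp null female 4. For jar, myosin VI, PSI was 0.193 to 0.529 in controls and 0 to 0.170 in clamp null libraries (ΔPSI -0.296 ± 0.0651, adjusted p = 0.044), a call kept in 4 of the 12 fits with an adjusted p of up to 0.101. In cher, the actin crosslinker filamin, PSI of the event with the first exons 3260 bases apart was 0.178 to 0.825 in controls and at most 0.0153 in clamp null libraries, but the SD was wide and the averaged contrast missed the threshold (ΔPSI -0.410 ± 0.0968, adjusted p = 0.0569).

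**Figure D2:**
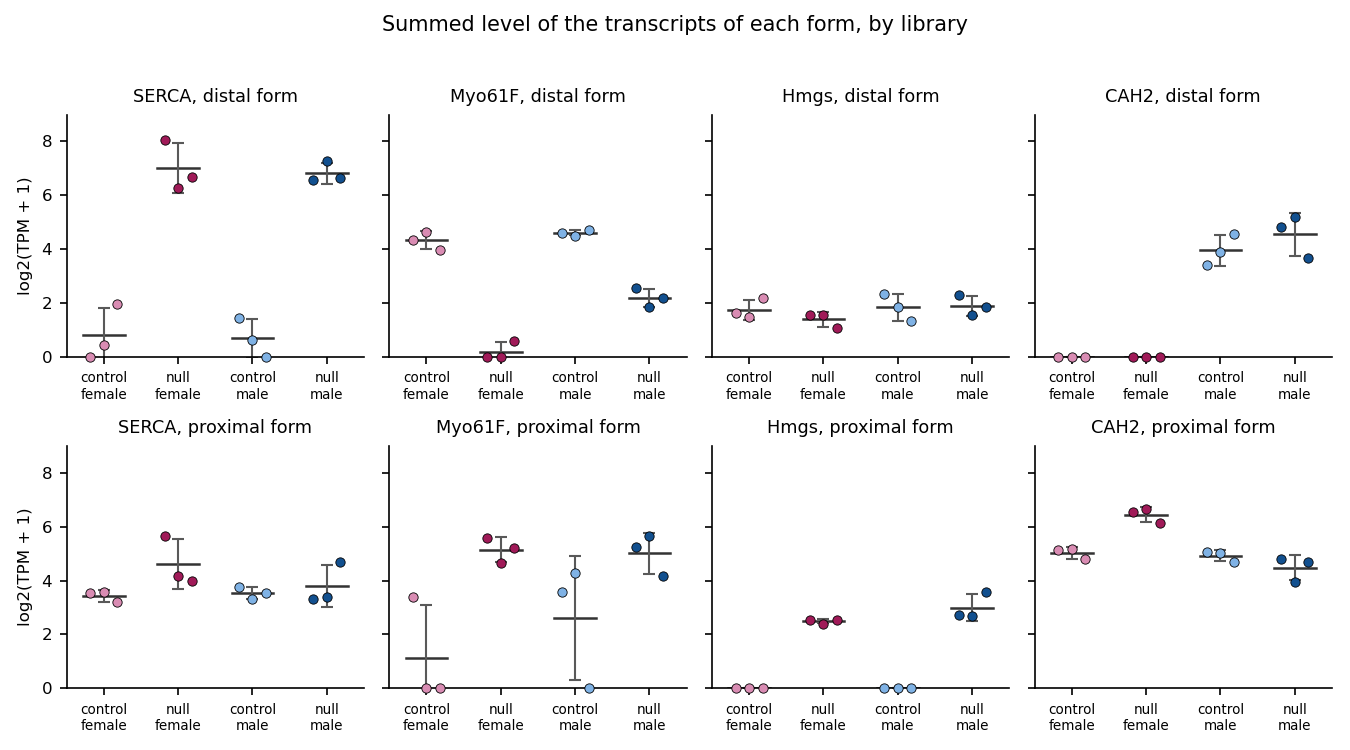
Summed level of the transcripts of the distal form (upper row) and the proximal form (lower row) of 4 events, as log2(TPM + 1) in each library, with means and SD over the 3 libraries of a group. The SERCA distal form reaches 77 TPM or more in every clamp null library and no more than 2.89 TPM in controls, the Hmgs proximal form is listed at 0 in all controls, and the CAH2 distal form is listed at 0 in all females.

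Among genes of membranes, transport and matrix, NTPase, a nucleoside triphosphatase on 2L, moved towards its distal first exon. PSI was 0.206, 0.352 and 0.463 in control females, and clamp null females had 0.945, 0.837 and 0.885. Control males had 0.403, 0.201 and 0.161, and clamp null males had 0.955, 1 and 0.891. No clamp null library overlapped a control (ΔPSI 0.621 ± 0.0554, adjusted p = 0.000759). The distal form rose by 2.20 ± 0.33 and the proximal form fell by 2.37 ± 0.41 on the log2 scale (adjusted p = 0.00053 and 0.0013), and the forms have different start codons. NijC, a membrane protein of the ninjurin family on 3R, went the other way. Female PSI values were 0.804, 0.964 and 0.71 in controls and 0, 0.351 and 0.398 in clamp null libraries, and male values were 0.954, 0.926 and 0.903 in controls and 0.136, 0 and 0.318 in clamp null libraries. The genotypes were apart in both sexes. The ΔPSI was -0.676 ± 0.0837 (adjusted p = 0.00428), and the distal form fell by 3.78 ± 0.59 on the log2 scale (adjusted p = 0.000637) and the whole gene by 2.21 ± 0.49 (adjusted p = 0.00215).

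Drip, an aquaporin, used its distal first exon at 0.602 to 0.859 in controls and at 0.918 to 1 in clamp null libraries (ΔPSI 0.251 ± 0.0353, adjusted p = 0.00741). The proximal form fell by 2.19 ± 0.45 on the log2 scale (adjusted p = 0.00368). For yin, a peptide transporter, PSI was 0.683 to 1 in controls and 0 to 0.714 in clamp null libraries, so clamp null female 6 overlapped the controls (ΔPSI -0.722 ± 0.122, adjusted p = 0.0154). The gap junction gene ogre, an innexin, had a PSI of 0.407 to 0.496 in controls and 0.118 to 0.398 in clamp null libraries (ΔPSI -0.234 ± 0.0309, adjusted p = 0.0054). These 3 genes thus differed in direction, with Drip higher and yin and ogre lower.

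Rtnl1, a reticulon that shapes the endoplasmic reticulum, shifted towards its proximal first exon in 2 events. With the most upstream first exon as partner, PSI was 0.605 to 0.964 in controls and 0.138 to 0.396 in clamp null libraries (ΔPSI -0.438 ± 0.0546, adjusted p = 0.0044). The shared proximal form rose by 2.96 ± 0.37 on the log2 scale (adjusted p = 0.000141). For Mmp1, a matrix metalloproteinase, the distal form was listed at 0 in all 6 controls and at 0.58 to 3.22 TPM in clamp null libraries, with PSI values of 0.322 to 1 there (ΔPSI 0.509 ± 0.0833, adjusted p = 0.0146). This form is of low level, and clamp null male 6 had 0.58 TPM of it and none of the proximal form. Indy, a citrate transporter, had PSI values of 0 to 0.214 in controls and 0.249 to 0.403 in clamp null libraries (ΔPSI 0.259 ± 0.0464, adjusted p = 0.02), and the call was lost without clamp null female 4 (adjusted p = 0.0526).

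In metabolism, Hmgs moved in both sexes. It encodes HMG-CoA synthase of the mevalonate pathway and lies on 2R, with first exons at 16336090 to 16336863 and 16338302 to 16338421 and a shared start codon. PSI was 1 in all 6 control libraries, 0.288, 0.312 and 0.185 in clamp null females and 0.409, 0.262 and 0.191 in clamp null males. The ΔPSI was -0.725 ± 0.0365 (adjusted p = 3.66e-05). The proximal form was listed at 0 in all controls and at 4.27 to 10.9 TPM in clamp null libraries, while the distal form differed by -0.15 ± 0.36 on the log2 scale (adjusted p = 0.785). Gbs-76A, the glycogen-binding subunit of protein phosphatase 1, used its distal first exon at 0.452 to 0.498 in control females, 0.687 to 1 in control males and 0.947 to 1 in clamp null libraries (ΔPSI 0.319 ± 0.0455, adjusted p = 0.00795).

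The lipid synthesis enzymes ACC (acetyl-CoA carboxylase) and ATPCL (ATP citrate lyase) both moved towards the proximal form. ACC had PSI values of 0.874 to 1 in controls and 0.318 to 0.836 in clamp null libraries (ΔPSI -0.430 ± 0.0967, adjusted p = 0.0488). That call held in 1 of the 12 fits with a library left out, with an adjusted p of up to 0.103. ATPCL had PSI values of 0.471 to 0.836 in controls and 0.175 to 0.445 in clamp null libraries (ΔPSI -0.290 ± 0.0596, adjusted p = 0.0331), and held in 3 of the 12 fits with an adjusted p of up to 0.0833. Neither gene overlapped between genotypes, so the direction was the same in all libraries although the call was not stable.

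Regulators of transcription, RNA and signalling were also among the stable calls. For kay, the Fos subunit of the AP-1 transcription factor, the most upstream first exon fell from 0.596, 0.740 and 0.696 in control females to 0.271, 0.238 and 0.409 in clamp null females, and from 0.641, 0.862 and 0.72 in control males to 0.386, 0.333 and 0.301 in clamp null males. The genotypes did not overlap (ΔPSI -0.386 ± 0.0469, adjusted p = 0.00386), and a second upstream first exon lost share to the same proximal exon (ΔPSI -0.351 ± 0.0582, adjusted p = 0.0148). The start codons of these kay forms differ. CrebB, the transcription factor that binds cyclic AMP response elements, shifted towards its distal exon, from 0.356 to 0.587 in controls to 0.640 to 1 in clamp null libraries (ΔPSI 0.355 ± 0.057, adjusted p = 0.0135). For Srpk79D, a kinase of SR splicing proteins, PSI was 0.524 to 0.827 in controls and 0 to 0.425 in clamp null libraries (ΔPSI -0.493 ± 0.0797, adjusted p = 0.0139). HDAC6, a cytoplasmic deacetylase, changed by less (0.762 to 0.873 against 0.878 to 0.978, ΔPSI 0.132 ± 0.0174, adjusted p = 0.0053). PGRP-LB, an amidase that dampens the response to bacterial peptidoglycan, had a ΔPSI of 0.354 ± 0.0519 (adjusted p = 0.00925), with 0.382 to 0.633 in controls and 0.711 to 1 in clamp null libraries.

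The levels of the forms showed which member of a pair moved. Of 2580 first exon forms with a mean of at least 1 TPM, 10.3% (266) were higher and 18% (465) lower in clamp null libraries by limma on log2(TPM + 1). With a median-of-ratios scaling the excess turned over, to 397 higher and 300 lower. Among the 36 events with a higher distal share, the distal form rose in 12 and the proximal form fell in 28, both in 6. Among the 47 events with a lower distal share, the proximal form rose in 23 and the distal form fell in 24, both in 4. The median form was 0.31 lower on the log2 scale in clamp null libraries, which the scaling reduced to 0.03. Among the called events the scaled counts were 17 and 25 for a higher share and 27 and 22 for a lower share, so which form was called depended partly on scaling. PSI, a ratio within a library, does not.

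Called events differed from all tested events in some features the rule did not use. Start codons differed between the forms in 47.0% of the 83 called events and in 36.5% of the 1715 tested, the median distance between starts was 3103 bases against 1647, and 15.7% against 20.5% were X-linked. Only the distance went the other way among the calls of the empirical test within a sex, described below. There the median was 1201 bases among called and 1624.5 among tested events in females, and 1016 and 1614 in males. These are descriptions with no test.

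The 83 events were then read by sex. In 66 of them, in 55 genes, ΔPSI was at least 0.1 in the same direction in both sexes, with a gain of the distal form in 27 and a loss in 39. In 11 events of 11 genes (Atat, CG1146, CG17230, CG42675, CLS, Csk, Nacalpha, Tm1, br, sgg and tna) it was at least 0.1 in males and under 0.05 in females, and in 0 events the reverse, while 6 events fell in neither class. These classes were drawn after the values were seen and are descriptions. The averaged contrast favours events that move the same way in both sexes, so agreement in direction is partly built in. The median absolute difference in PSI between control males and control females was 0.330 in the 11 events and 0.0895 in the 66.

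**Figure D3:**
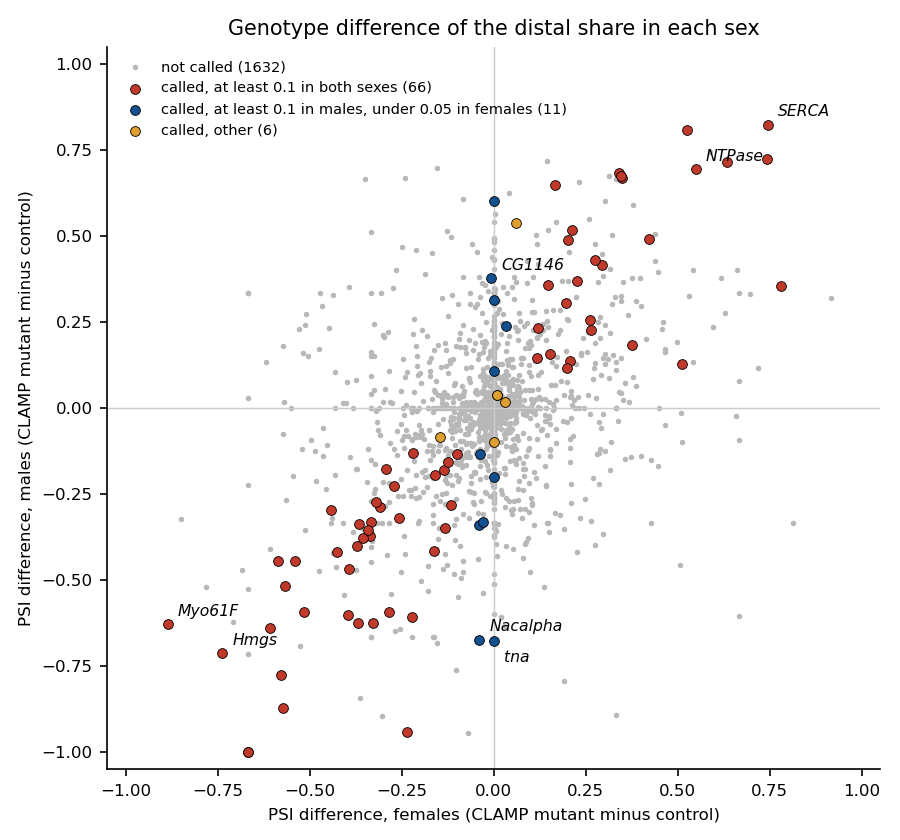
Genotype difference in PSI (clamp null minus control) in females on the horizontal axis and in males on the vertical axis, 1 point for each of the 1715 events with a PSI in all 12 libraries. Of the 83 called events, 66 lie at 0.1 or more in the same direction in both sexes and 11 lie near 0 in females, among them CG1146, Nacalpha and tna. The events were called on the average over the sexes, so agreement in direction is partly built in.

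Nacalpha, the alpha subunit of the nascent polypeptide-associated complex, had a distal share of 0.824, 0.711 and 0.551 in control males and of at most 0.101 in the 9 other libraries. In CG1146 the distal share was 0.606, 0.645 and 0.618 in control males and 0.978 to 1 elsewhere, and in Csk, the C-terminal Src kinase, it was 0.874, 0.902 and 0.902 in control males and 1 elsewhere. In all 3 genes the control males lay apart from every other library. Atat, an alpha-tubulin acetyltransferase, had PSI values of 0.772, 0.615 and 0.624 in control males and at least 0.955 elsewhere. For tna, a zinc finger protein linked to chromatin remodelling, PSI was 0.736, 0.850 and 0.857 in control males, 0 in all 6 females and 0, 0 and 0.406 in clamp null males, and the genotype call was kept in 2 of the 12 fits.

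The sex by genotype interaction tested this difference directly. It was significant in 3 of the 1715 events (0.175%, against 0.221% of all events), namely CG1146 (difference of the ΔPSI values, males minus females, 0.384 ± 0.0148, adjusted p = 7.56e-06), Csk (0.107 ± 0.011, adjusted p = 0.00636) and Nacalpha (-0.635 ± 0.0873, adjusted p = 0.0329). CG1146 and Csk passed in every fit with 1 library left out. Limma pooled the spread of the 4 groups, and the libraries at or near a PSI of 1 lowered it for CG1146 and Csk. The Nacalpha interaction passed only without control male 1, 2 or 3 or clamp null male 6, and without any of the 8 other libraries its adjusted p was 0.0508 to 0.0782. Before adjustment, 104 of the 1715 events had a limma p-value under 0.05, not far above the share of 0.05 expected with no interaction. The testis markers moved with these events, being at 2032 to 3260 TPM in control males and at 62.4 TPM or less in all other libraries except clamp null male 6 (449 TPM). Their part in these results was not tested. In clamp null male 6, whose marker sum was below that of every control male, PSI was 0 for Nacalpha and 1 for CG1146 and Csk. The same values were found in clamp null males 4 and 5, apart from 0.0633 for Nacalpha in clamp null male 4. These are values of single libraries, and their relation to testis content was not tested.

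Within each sex, ΔPSI was also tested against the differences between replicate libraries of events with a similar TPM, the empirical approach of SUPPA, with p-values adjusted within each gene. In females 56 of 1914 events (2.93%) in 48 genes were called, against 1.76% of all events, and in males 63 of 1921 (3.28%) in 57 genes, against 1.98%. In females the distal share was higher in 21 and lower in 35 (0.992% and 1.65% of first exon events of any level), and in males it was higher in 21 and lower in 42 (0.989% and 1.98%). Of the events with at least 3 TPM these were 1.10% and 1.83% in females and 1.09% and 2.19% in males. PSI did not overlap between the 3 clamp null and 3 control libraries in 12.2% of events in females and 15.8% in males, close to the 11.9% and 14.9% of all events. When p-values were adjusted over all events instead, 0 events passed in either sex, and 139 and 175 had an unadjusted p-value under 0.05. The empirical test has a smallest possible p-value, given with the processing below. Adjusted over so many events, even a p-value at that limit passes only when many events have very small p-values. The 0 therefore does not show that no event differed. Limma on PSI, adjusted over all events, called 10 in females and 62 in males, of which 6 and 19 were also called by the empirical test. Without clamp null male 6 the count in males was 109, and with clamp null male 6 as the only clamp null male it was 126.

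Calls in both sexes were made for 22 events of 20 genes, which is 39.3% of the female and 34.9% of the male calls, and these comparisons share no libraries. In 20 of them the direction was the same, and CG33170 and spi were the exceptions. Over all 1241 events with a nonzero ΔPSI in both sexes, 63.2% had the same direction. The share called in both sexes among events of all classes is not given here. Developmental stage differs with genotype in both comparisons, so this agreement does not separate stage from genotype. The female call of Actn (ΔPSI -0.395, adjusted p = 0.0375) was lost without clamp null female 4, 5 or 6 or control female 1, with an adjusted p of 0.0674 to 0.0937. Besides SERCA, Myo61F, NTPase, NijC and Actn the events included CG7222, where PSI was 0, 0 and 0.772 in control females, 1 in all clamp null females, 0, 0.301 and 0 in control males and 0.677, 0.795 and 1 in clamp null males. Each clamp null library of a sex lay above each control of that sex, and ΔPSI was 0.743 in females and 0.724 in males (adjusted p = 0.0245 and 0.014, empirical test). Agpat2, an acyltransferase of phospholipid synthesis, shifted in the same direction, by 0.634 and 0.714 (adjusted p = 0.033 and 0.014). The contrast averaged over the sexes kept CG7222 and Agpat2 in 4 of the 12 fits each.

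Other genes had large ΔPSI values that were called in a single sex. In females, CG9485 changed from 0 in all 3 controls to 0.898, 0.974 and 0.882 in clamp null females (ΔPSI 0.918, adjusted p = 0.025, empirical test), and clamp null male 5 also reached 0.963 while the other clamp null males were at 0. PI31, a regulator of the proteasome, changed from 0 in all 3 control females to 1, 1 and 0.680 (ΔPSI 0.893, adjusted p = 0.0035). PAN3, a subunit of a deadenylase complex, fell from 0.730, 1 and 1 to 0.184, 0 and 0 (ΔPSI -0.849, adjusted p = 0.0315), and that call was lost when control female 1 or 2 or clamp null female 5 or 6 was left out, with an adjusted p of up to 0.0749. In males, Cpr97Ea, a cuticle protein, went from 1 in all 3 controls to 0 in all 3 clamp null males (adjusted p = 0.0275), with forms of 1.86 to 2.57 TPM and 4.24 to 13.1 TPM. In females PSI of Cpr97Ea was 1 in all 3 controls and 0, 1 and 0 in clamp null libraries, and the contrast averaged over the sexes called it (ΔPSI -0.833, adjusted p = 0.026) in 3 of the 12 fits. CG6424 fell from 0.853, 1 and 0.832 in controls to 0 in all 3 clamp null males (ΔPSI -0.895, adjusted p = 0.013). Whether these effects differed between the sexes was tested by the interaction for all events with complete values, and 0 of 31 events called in females alone and 1 of 36 called in males alone passed it.

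Levels of first exon forms were compared within each sex as well. In females 5% of the 2580 forms were higher in clamp null larvae and 4.07% lower, and in males 5.89% were higher and 14.7% lower. The median form was 0.48 lower on the log2 scale in clamp null males, which the median-of-ratios scaling reduced to 0.05. With that scaling 255 forms were higher and 215 lower in males, in place of 152 and 378, and in females 184 were higher and 89 lower, in place of 129 and 105. The balance of higher and lower forms thus depended on the scaling in both sexes.

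The comparison of the sexes in controls asked which first exons are used differently by males and females that carry CLAMP. The empirical test called 49 of 2008 events (2.44%) in 46 genes, against 1.58% of all events, with a higher distal share in males in 16 and a lower one in 33 (0.740% and 1.44% of first exon events of any level). PSI did not overlap in 11.9% of events, against 10.3% of all events. With p-values adjusted over all events 0 passed (136 unadjusted), under the same limit of the smallest p-value, and limma on PSI called 28. In clamp null larvae the same comparison called 23 of 1894 events (1.21%, against 0.663%) in 22 genes, with 8 higher and 15 lower in males (0.387% and 0.725%). PSI did not overlap in 4.17% of events there, against 5.36% of all events. Adjusted over all events 0 passed (53 unadjusted), again under that limit, and limma called 1, that of mge. The count was 42 without clamp null male 6, 36 without clamp null male 5, and 78 with clamp null male 6 alone as clamp null male.

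Several of the largest differences between the control sexes were in genes whose level differed too. For Rsph3, a radial spoke protein of motile cilia, PSI was 0 in all control females and 0.975, 0.990 and 0.983 in control males (adjusted p = 0.027, empirical test), with a distal form of 42.0 to 43.7 TPM in control males and 0 in control females. In kermit, an adaptor protein of the GIPC family, PSI was 1 in all control females and 0.146, 0.247 and 0.109 in control males (adjusted p = 0.027, empirical test), with a proximal form of 26.6 to 37.6 TPM in control males and 0 in control females. For Rsph3 and kermit the PSI of control females rests on the other form alone, whose level is not given. These values therefore do not by themselves show an exchange of first exons. The event of red went from 1 in all control females to 0.215, 0.167 and 0.207 in control males (adjusted p = 0.016). In CG11779 PSI was 0 in all control females, 1 in all control males (adjusted p = 0.0165) and 0, 0 and 0.325 in clamp null males. Mean gene TPM was also higher in control males than in control females in red (82.5 against 27.8) and CG11779 (28.6 against 4.52). For bru1, the RNA-binding protein Bruno, PSI was 0, 0.206 and 0.761 in control females and 1, 0.982 and 1 in control males (ΔPSI 0.672, adjusted p = 0.025), with a distal form of 46.4 to 52 TPM in control males, 7.65 TPM in clamp null male 6 and 0 in clamp null males 4 and 5. The bru1 call was lost without control female 1 or control male 3, with an adjusted p of up to 0.0644. Mst87F, a sperm protein and the only testis marker with an event, had 289 to 634 TPM of its proximal form in control males, 59.7 TPM in clamp null male 6 and at most 9.75 TPM elsewhere. Testis transcripts were abundant in the same control males (above), and their part in these differences was not tested.

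At the level of forms, 4.77% (123) were higher and 0.465% (12) lower in control males than in control females, and 91 and 28 with the median-of-ratios scaling. For the 39 called events with a PSI in all 12 libraries, the position of each clamp null library was read on a scale from 0 (the mean of control females) to 1 (the mean of control males). Clamp null male 6 had a median position of 0.579 and lay nearer to control males in 20 of the 39 events. Clamp null males 4 and 5 had a median of 0 and were nearer to control males in 13 and 11, and the clamp null females likewise had a median of 0 and were nearer in 8 to 10. Since the events were chosen on the control libraries, this is a description.

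**Figure D4:**
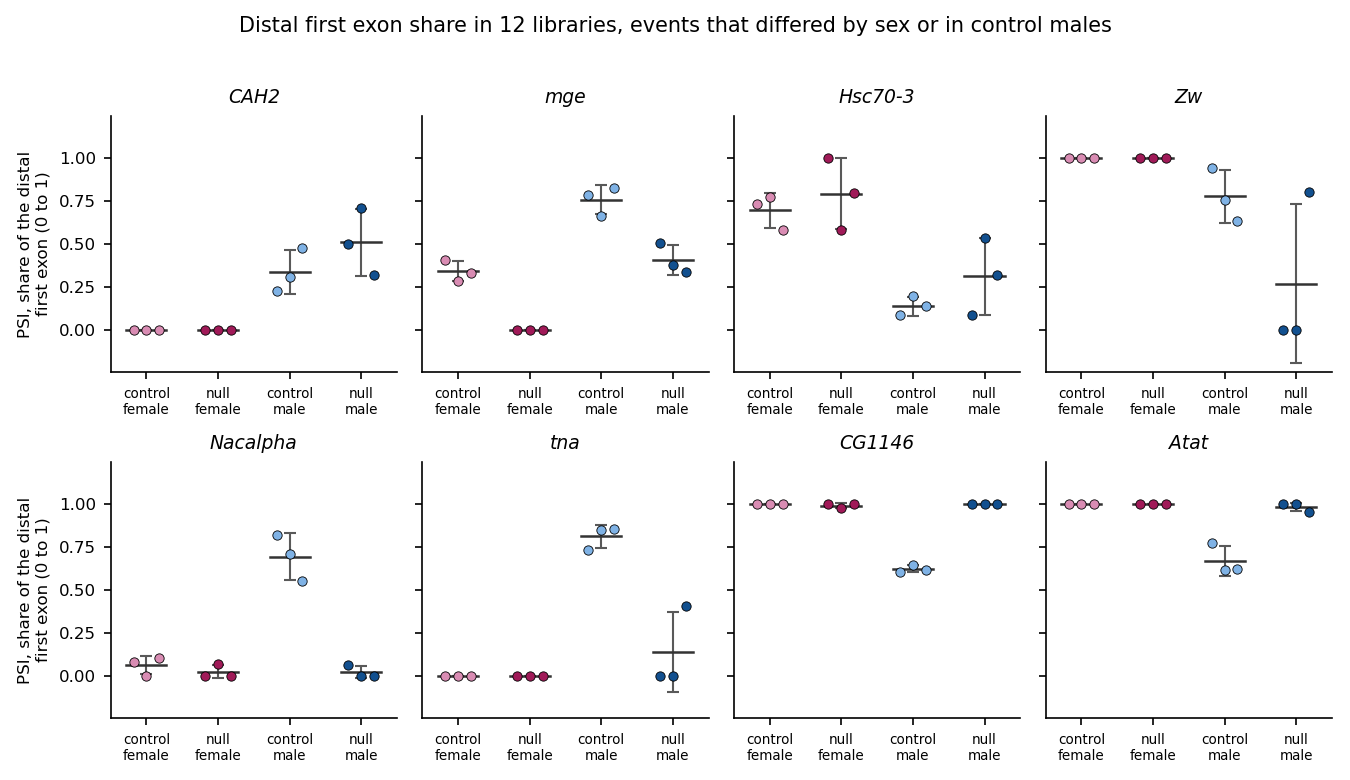
Share of the distal first exon (PSI, 0 to 1) in each of the 12 libraries for 8 events that differed by sex or in control males, with group means and SD as bars over 3 libraries. CAH2 is at 0 in all 6 females and at 0.227 to 0.711 in all 6 males, whereas in Nacalpha, CG1146 and Atat the 3 control males lie apart from all other libraries.

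In clamp null larvae, the sexes differed for spi, a ligand of the EGF receptor, with PSI of 1 in all clamp null females and 0 in all clamp null males (adjusted p = 0.014, empirical test). Its control libraries disagreed among themselves (1, 0 and 0 in females and 1, 0 and 0.813 in males). PNUTS, a regulatory partner of protein phosphatase 1, had PSI of 0.868, 0.939 and 0.549 in clamp null females and 0.207, 0.176 and 0.518 in clamp null males (ΔPSI -0.485, adjusted p = 0.011). Both calls held with any single library left out.

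A contrast of the sexes averaged over the genotypes was also added after seeing the data. It called 9 of the 1715 events (0.525%, against 0.405% of all events) by limma, 5 with a higher and 4 with a lower distal share in males. For first exon events of any level the shares were 0.274% and 0.329%. PSI did not overlap between the 6 male and 6 female libraries in 7 events (0.408%, against 0.196%). The count of 9 ranged from 4 to 23 over the fits with 1 library left out, and CG1146, Csk and mge passed in each. A call here can rest on controls alone: the difference between males and females was -0.377 in controls and 0.00747 in clamp null larvae for CG1146, and -0.107 and 0 for Csk. For mge it was 0.418 and 0.406.

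The event of mge, a receptor of the mitochondrial import pore, differed by both genotype and sex. PSI was 0.407, 0.286 and 0.334 in control females, 0 in all clamp null females, 0.786, 0.664 and 0.828 in control males, and 0.504, 0.376 and 0.337 in clamp null males. Within each genotype all males were above all females, and within each sex all clamp null libraries were below all controls. The difference was 0.412 ± 0.0382 for males minus females (adjusted p = 0.00328) and -0.348 ± 0.0382 for clamp null minus control (adjusted p = 0.00224), and the start codons of the forms differ.

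CAH2, a carbonic anhydrase on 3L, had a first exon that was listed only in males. Its first exons lie at 12177601 to 12177669 and 12179876 to 12180155 and have different start codons. The distal form was listed at 0 in all 6 females and stood at 9.58, 13.9 and 22.6 TPM in control males and 27.1, 35.7 and 11.7 TPM in clamp null males. PSI in these libraries was 0.227, 0.306 and 0.478, and 0.503, 0.711 and 0.320. The sex difference was 0.424 ± 0.0653 (adjusted p = 0.0404), a call kept in 3 of the 12 fits with an adjusted p of up to 0.109, although the direction held in all libraries.

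Among the 6 other events without overlap between the sexes, 5 were X-linked (Hsc70-3, Zw, nocte, regucalcin and RpL35) and 1, scny, was on 3L. The calls showed no such excess. Of the 9 events called by the averaged sex contrast 0 were X-linked, against 20.5% of those tested. In controls by sex 16.3% of the called and 21.2% of the tested events were X-linked. Hsc70-3, the chaperone BiP of the endoplasmic reticulum, had a distal share of 0.584 to 0.774 in control females, 0.585 to 1 in clamp null females, 0.0834 to 0.194 in control males and 0.0854 to 0.536 in clamp null males (difference -0.520 ± 0.0912, adjusted p = 0.0618). For Zw, glucose-6-phosphate dehydrogenase, PSI was 1 in all 6 females, 0.944, 0.759 and 0.635 in control males and 0, 0 and 0.805 in clamp null males, and the proximal form was listed at 0 in every female. The averaged sex contrast for Zw did not pass (adjusted p = 0.317). In nocte PSI was 0.897 to 1 in females and 0.385 to 0.764 in males (difference -0.404 ± 0.0662, adjusted p = 0.0524).

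Gene lists chosen with earlier results of these data known were read for the genotype contrast, beside the 4.84% of all tested events. No late L3 marker had an event. In the muscle and cytoskeleton list, 16 of 29 genes found had events, and of 53 tested events 2 had a higher and 5 a lower distal share, in Actn, Tm1, cher, chic and jar. The Tm1 events held in 7 and 5 of the 12 fits with a library left out, and those of cher and chic in 2 each. The called cher event (ΔPSI 0.158) ran opposite to the cher event above that was not called. The median absolute ΔPSI of the muscle and cytoskeleton list was 0.0173, against 0.0562 over all tested events. Mhc, the myosin heavy chain of muscle, used the distal first exon at 0.994 or more in every library in its 4 abundant events. In the energy and intermediary metabolism list, 1 of 33 tested events was higher (Argk1) and 2 lower (ACC and ATPCL), and the median was 0.0237. The signalling list had 0 higher and 2 lower of 29 tested (Pka-R1, a regulatory subunit of protein kinase A, and sgg, the kinase GSK3), which held in 3 and 11 of the 12 fits, with a median of 0.0772. In the ecdysone response list 0 of 15 were higher and 1 lower, in br, a transcription factor of the early hormone response, whose distal share was 0 in all 6 clamp null libraries and 0.105 to 0.157 in control males (ΔPSI -0.085 ± 0.0157, adjusted p = 0.0234, kept in 7 of the 12 fits). None of the 18 tested events of splicing factors and RNA-binding proteins and none of the 14 of chromatin and transcription regulators was called by limma, with medians of 0.0806 and 0.0875. Among these 2 lists the empirical tests within a sex or genotype called bru1 in controls by sex and E(Pc) in females by genotype. The E(Pc) call (ΔPSI -0.483, adjusted p = 0.049) was lost without clamp null female 4 (0.0524), clamp null female 5 (0.0509) or control female 3 (0.317, ΔPSI -0.224).

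Only dsx and fru of the 16 sex determination and dosage compensation genes had events, 5 in all, and 0 were called in any comparison. The sex-specific inclusion of an sxl exon that the paper reports is another class of event, which first exon events do not cover. For dsx, the switch gene of somatic sex, PSI was 0.275, 1 and 1 in control females, and clamp null females had 1, 0.0990 and 1. Control males had 0.212, 0.381 and 0.288, and clamp null males had 1, 0.311 and 1. The libraries of 3 of the 4 groups disagreed among themselves, so no difference could be read from it. Of 14 genes with textbook alternative promoters 7 had events, and of 20 tested 1 was called, that of br. Act5C, a cytoplasmic actin known for its alternative promoters, used the distal first exon at 0.929 to 0.985 in all 12 libraries.

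**Figure D5:**
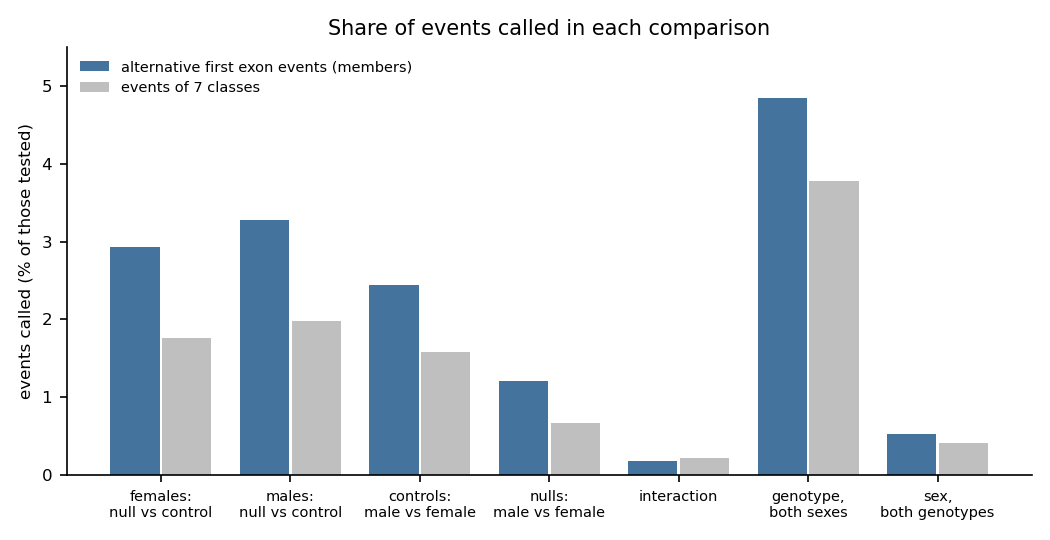
Percent of tested events called in each comparison, for the alternative first exon events described here (blue) and for events of all 7 classes (grey). The first 4 comparisons use the empirical test adjusted within genes and the last 3 use limma adjusted over all events, so heights compare within a pair of bars. In percentage points, first exon events exceed the background by the most in the comparisons within a sex (2.93% against 1.76% in females and 3.28% against 1.98% in males) and lie below it for the interaction (0.175% against 0.221%). The first exon events had to reach 3 TPM on average and the events of all 7 classes did not, so the bars of a pair differ in this limit too.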

How the data were processed

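The authors trimmed the reads, quantified transcripts with Salmon and deposited the TPM of 29936 transcripts in each of the 12 libraries, as the study's methods describe it. The processing notes name Trim Galore, cutadapt, FastQC, Bowtie2 and the build dm6, and versions are not given in the sources used here. Read counts were not used here, so depth is unknown and no counting interval can be given, and the spread between libraries is the only error. A PSI of exactly 0 or 1 can come from transcript assignment by Salmon as well as from absence of a form, which was not tested.

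Events were built from the exons of Ensembl release 115 (BDGP6 assembly, patch 54), which held 29926 of the transcripts. The other 10 (at most 58.0 TPM) were left out. The study's methods name another annotation release, so transcript models may differ. Sequences at the first exons are not analysed here. The empirical test ranked the absolute ΔPSI among the 1000 between-replicate differences nearest in TPM, with 0.5 times this rank share as p, Benjamini-Hochberg adjustment within a gene and a threshold of 0.05. The smallest p-value it can give is about 0.0005, and 3 against 3 libraries cannot go below 0.1 in an exact permutation test of a single event. Limma 3.58.1 (R 4.3.3) was run on PSI and on log2(TPM + 1) of forms that reached 1 TPM on average, using all 12 libraries in 4 groups and adjustment over all events or forms. Python 3.11.15, numpy 2.4.6, pandas 2.3.3, scipy 1.17.1 and matplotlib 3.10.9 were used, and the tests were checked on simulated data.

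Members, lists and tests were chosen with earlier results of these data known. The genes named per comparison were the 8 with the largest absolute ΔPSI among called events without overlap, 1 event a gene, with all interaction calls and up to 6 called genes a list. The contrasts averaged over sex or genotype, and the splits over 12 libraries, were added after seeing the data, and genes named from them, from both-sex calls, or as exceptions were chosen after their values were seen. Of the lists, 9 symbols were not found. Alternatives covered the adjustment, the TPM minimum, the pseudocount, scaling, limma on PSI, a replicate block and leaving out libraries.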

Additional observations from a re-analysis of the deposited data

Results flagged for a closer look

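For 3 events the genotype difference itself differed between males and females by the interaction term of limma, with p-values adjusted over all events. In CG1146 the interaction (ΔPSI in males minus ΔPSI in females) was 0.384 (adjusted p = 7.56e-06). ΔPSI was 0.377 in males and -0.00747 in females, and the 3 control males (0.606, 0.645 and 0.618) stood apart from the 9 other libraries (0.978 to 1). In Csk the interaction was 0.107 (adjusted p = 0.00636), with ΔPSI of 0.107 in males and 0 in females, and again only the control males (0.874, 0.902 and 0.902) were below 1. In Nacalpha the interaction was -0.635 (adjusted p = 0.0329), with ΔPSI of -0.674 in males and -0.0392 in females, and control males at 0.551 to 0.824. CG1146 and Csk kept their calls whichever library was left out, whereas Nacalpha lost its call in 8 of the 12 fits, with an adjusted p of 0.0508 to 0.0782. Testis markers were at 2032 to 3260 TPM in the same control males, and their part in these differences was not tested. The spread that limma used was pooled over the 4 groups, and libraries at or near a PSI of 1 lowered it for CG1146 and Csk.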

How the results depend on the processing

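With p-values adjusted over all events, not within a gene, the empirical test called 0 first exon events in each of the 4 comparisons. These counts of 0 are limited by the smallest p-value the test can give and do not show that no event differed. With no adjustment the empirical test called 139 (females), 175 (males), 136 (controls by sex) and 53 (clamp null larvae by sex). Limma on PSI called 10, 28 and 1 in females, in controls by sex and in clamp null larvae by sex. With clamp null male 6 as the only clamp null male the counts were 126 in males and 78 in clamp null larvae by sex, and 80 in place of 9 for sex averaged over genotypes. Unadjusted, the interaction had 104 events, genotype averaged over sexes 280 and sex averaged over genotypes 148. Leaving out each library in turn gave 55 to 73 calls in females, 63 to 109 in males, 50 to 73 in controls by sex, 25 to 42 in clamp null larvae by sex, 3 to 17 for the interaction, 50 to 110 for genotype averaged and 4 to 23 for sex averaged. For levels of forms it gave 107 to 185 in females, 372 to 514 in males and 95 to 126 in controls by sex. The labels do not say whether equal replicate numbers pair a male and a female library, and correlations over 3 libraries a group cannot settle it. Same-numbered libraries had correlations of -0.0905 to 0.0612 in PSI and of -0.0766 to 0.264 in gene levels. In gene levels control pairs 1 and 3 reached 0.264 and 0.146 and pair 2 was at -0.0611. Differently numbered control pairs were at -0.240 to 0.0981 there. With a replicate block limma called 4 events in controls by sex, against 25 without the block in the same libraries. In clamp null larvae by sex it called 1, against 3. Of the 38 named differences called by the empirical test, limma called 6, having tested 9 in females, 9 in males, 3 in controls by sex and 7 in clamp null larvae by sex. Direction was followed with a library left out for the 38 named differences, the 3 interactions and the calls of the averaged contrasts, and none reversed. The other calls were compared by count alone. Depth is unknown, so it cannot be said which values are limited by it.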

Other observations

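Some first exon forms were present in every library of a genotype and listed at 0 in every library of the other, but belong to events with no PSI in some libraries, so the contrasts over all 12 libraries did not test their PSI. The proximal form of CG5171 stood at 10.8 to 12.4 TPM in control females and 26.5 to 34.2 TPM in control males and was listed at 0 in all 6 clamp null libraries (log2 difference -4.30 ± 0.30, adjusted p = 2.28e-06, limma). The distal form of SP1029 stood at 4.20 to 9.11 TPM in control females and 21.6 to 30.7 TPM in control males and was likewise listed at 0 in all clamp null libraries (log2 difference -3.79 ± 0.33, adjusted p = 1.25e-05). As a whole, the genes differed by -2.64 ± 0.28 and -1.80 ± 0.31 on the log2 scale, lower in clamp null larvae. The fitted values of forms at 0 depend on the pseudocount and are no bounds.

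HmgD, an HMG-box chromatin protein, had less of a proximal form in clamp null larvae. In the event whose first exons start 12678 bases apart, that form had 33.0 to 92.3 TPM in the 6 controls, against 0 to 25.4 TPM in clamp null libraries (log2 difference -3.38, adjusted p = 0.00446), and PSI was 0.00824 to 0.0907 in controls and 0.178 to 1 in the mutants. The averaged contrast in PSI was 0.513 ± 0.146 and did not pass (adjusted p = 0.108).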
